A study of Mus musculus with 16 samples.

Results

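Nrn1l, Dusp26, Tmem158, Tmem79, Cd55 and Cd55b are 6 mouse genes that encode neither an ion channel nor a sensory receptor and that were picked because their RNA was higher, by a large and even amount, in ribosome-bound RNA of nociceptors than in total RNA of the whole ganglion. They are 6 of 53379 gene IDs in the deposited tables, and all 6 were among the 16099 genes with enough signal to be compared. Because the values of the pulldown against total RNA chose these genes, that contrast is described below without a test for them, and only the comparisons of female with male pools, which the choice did not use, were tested.

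Dorsal root ganglia, which hold the cell bodies of the sensory neurons of the body, were taken from untreated female and male littermates aged 8 to 12 weeks. All mice, in every group, carried Cre recombinase driven by the promoter of Scn10a, which encodes the sodium channel Nav1.8, and the Rosa26fsTRAP allele on the C57BL/6J strain. Their neurons with Nav1.8 therefore made a ribosomal protein L10a fused to EGFP. Ganglia of 3 mice of one sex made a pool, and each of the 4 pools per sex gave a library of total RNA (IN) and a library of RNA pulled down with antibodies to GFP (IP), 16 libraries in 4 groups of 4. The tag follows Cre, so a neuron that used the Scn10a promoter only earlier in life would carry it too, no mouse without the tag was among the samples used here, and IP is a measure of RNA bound to tagged ribosomes and not of protein.

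Nociceptors are the sensory neurons that respond to painful stimuli, and their surface carries proteins held by a glycosylphosphatidylinositol (GPI) anchor, among them growth-factor co-receptors, neuritins and regulators of complement. Neuritins are small anchored proteins known from the growth and survival of neurons, and Nrn1l is the lesser studied relative of Nrn1. Cd55, also called decay-accelerating factor, is an anchored protein that breaks up the complement convertases and so shields the cell that carries it, and Cd55b is the second mouse copy of that gene. Dusp26 is an atypical dual-specificity phosphatase that acts on MAP kinases, Tmem158 is a membrane protein first described as a gene induced by Ras, and Tmem79 (mattrin) belongs to the MAPEG superfamily of membrane enzymes and is known from the skin barrier and from the breakdown of Frizzled receptors.

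The deposited values were TPM, an abundance per transcript length set to the same total in every library. They keep no read counts, and the depth behind a value is unknown. Of this total, 9.585% to 13.337% fell on protein-coding genes, without the mitochondrially encoded ones, in IN and 44.859% to 79.502% in IP. The TPM were therefore scaled between libraries by the median ratio over the tested genes. The protein-coding share given below leaves out the same mitochondrial genes. Levels are given as scaled TPM with their SD, and changes are differences of log2(scaled TPM + 1) with the standard error (SE) of a limma fit. Scn10a itself was at 125 ± 12.4 in IN and 381 ± 46.8 in IP (SD, n = 8 each), a log2 change of 1.60 ± 0.08, and all 16 tested nociceptor markers rose. The markers of satellite glia (8 of 8), myelinating Schwann cells (9 of 9), macrophages (8 of 8), fibroblasts (7 of 7) and blood cells (6 of 6) fell, as did 9 of 10 tested markers of large-diameter sensory neurons and 7 of 8 of endothelial cells, and 0 of these markers were at 0 in every IP library. Female pool 2 stood apart in IP, with the lowest share of protein-coding genes, the lowest summed nociceptor markers (3854 against 4848 to 5499 in the other IP libraries) and the highest summed satellite glia markers (288.7 against 126.2 to 246.6, with 958 to 1270.0 in the IN libraries). Where pools differ in total RNA, fewer cells of a type and less RNA per cell cannot be told apart in bulk RNA of this kind. How much RNA of untagged cells each pulldown carried over was not tested.

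Some of these genes share sequence or exons with a neighbour, and the stretches that bear on how their reads can be assigned are printed here. Cd55 (ENSMUSG00000026399.12, chr1:130439027-130462744, minus strand) and Cd55b (ENSMUSG00000026401.15, chr1:130388537-130423009, minus strand, GRCm38) lie next to each other, and the coding sequences of the first GENCODE M21 transcript of Cd55 and of Cd55b were 91.3% identical over 1149 aligned bases. Their longest identical run was 198 bases. It is shown with 20 bases on either side, the identical run in capitals, as spliced coding sequence on the minus strand that spans an intron in both genes (chr1:130459745-130462592 for Cd55 and chr1:130419764-130422887 for Cd55b, GRCm38).
Cd55: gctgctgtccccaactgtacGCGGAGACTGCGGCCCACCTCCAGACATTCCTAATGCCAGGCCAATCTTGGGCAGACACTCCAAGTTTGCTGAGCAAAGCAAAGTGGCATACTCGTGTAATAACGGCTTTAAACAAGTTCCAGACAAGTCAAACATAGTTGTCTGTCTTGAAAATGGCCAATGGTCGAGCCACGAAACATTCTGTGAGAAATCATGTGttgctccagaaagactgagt
Cd55b: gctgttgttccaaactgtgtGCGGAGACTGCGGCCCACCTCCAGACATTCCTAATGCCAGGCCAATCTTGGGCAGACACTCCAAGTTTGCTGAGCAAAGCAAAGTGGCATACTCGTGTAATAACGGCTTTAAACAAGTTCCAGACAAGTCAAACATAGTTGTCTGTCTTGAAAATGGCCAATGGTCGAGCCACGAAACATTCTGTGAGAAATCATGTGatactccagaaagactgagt
A read that falls inside the capitals matches both genes equally. Of all windows of 50 bases in this Cd55b transcript 25.94% were also in a Cd55 transcript, and of windows of 100 bases 13.62%. The sources used here do not say how the deposited values divided such reads, so the split between this pair is uncertain.

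Nrn1l (ENSMUSG00000044287.6, chr8:105893567-105895023, plus strand, GRCm38) overlaps Edc4, a gene of the mRNA decapping complex on the same strand. Of its 617 exon bases 458 (74.23%) are also exon bases of Edc4, all through 1 of 7 annotated Edc4 transcripts. The only coding bases of the first Nrn1l transcript outside Edc4 exons are the 44 printed here (chr8:105894623-105894666, plus strand), in lower case throughout because no part is singled out.
Nrn1l: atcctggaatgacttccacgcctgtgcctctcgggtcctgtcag
Nrn1l has little sequence in common with its relative Nrn1, with 61.0% identity over 400 aligned coding bases and no identical run longer than 7 bases. Tmem79 (ENSMUSG00000001420.13, chr3:88328655-88336148, minus strand) shares 1278 of its exon bases (43.89%) with Glmp on the other strand, and the sources used here do not say whether counting used strand. Dusp26 (ENSMUSG00000039661.14, chr8:31089471-31097047, plus strand) and Tmem158 (ENSMUSG00000054871.5, chr9:123259053-123260764, minus strand, with 1 annotated transcript) share exon bases with no other annotated gene.

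Nrn1l had the largest change of the 6 genes and the lowest level in both fractions. In female pools 1 to 4 its IN level was 7.31, 8.36, 7.56 and 7.34, and in male pools 1 to 4 it was 7.86, 8.25, 7.02 and 8.75. The IP levels were 35.5, 26.1, 36.3 and 31.6 in the female pools and 33.4, 38.9, 42.5 and 33.5 in the male pools. The 8 IN libraries lay close together, the IP library of female pool 2 was the lowest of its fraction, and the fractions did not overlap. The means were 7.81 ± 0.605 in IN and 34.7 ± 4.93 in IP (SD, n = 8 each), a log2 change of 2.01 ± 0.08 that ranked 5 of the 16099 genes, with folds of 3.12 to 6.06 in single pools. Its neighbour Edc4 was at 9.85 ± 0.942 in IN and 11.2 ± 1.76 in IP and did not pass the test (log2 0.16 ± 0.09, limma adjusted p = 0.126). The ratio of Nrn1l to Edc4 within a library, which needs no scaling, went from 0.797 ± 0.0796 in IN to 3.17 ± 0.623 in IP and was higher in IP in 8 of 8 pools. Nrn1, the founding neuritin, was more abundant, at 160 ± 32.8 in IN and 195 ± 74.97 in IP, and its change did not pass (log2 0.22 ± 0.22, adjusted p = 0.369, higher in IP in 6 of 8 pools). Nrn1 was thus 20.6 ± 4.59 times the level of Nrn1l in IN and 5.73 ± 2.37 times in IP.

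Dusp26 was the second most abundant of the 6 in both fractions. Its IN levels were 46.9, 46.8, 50.7 and 51.7 in female pools 1 to 4 and 46.4, 40.6, 43.9 and 60.4 in male pools 1 to 4. Its IP levels were 230.0, 159, 215 and 132 in the female pools and 194, 207, 219.5 and 197 in the male pools. Female pools 2 and 4 were the lowest in IP, the male IP libraries lay close together, and the fractions did not overlap. The means were 48.4 ± 5.99 and 194 ± 32.9 (SD, n = 8 each), a log2 change of 1.97 ± 0.11 that ranked 9, with folds of 2.56 to 5.10 in single pools. Female pool 4, whose IP library had the next lowest protein-coding share (57.603%), had the smallest change of this gene (log2 1.34). Male pool 2, which followed in that share (61.569%), had the largest (2.32). A link between share and change was not tested.

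Tmem158 followed the same course at a lower level. Its IN levels were 22.1, 21.8, 18.8 and 21.5 in female pools 1 to 4 and 19.8, 25.5, 19.3 and 17.9 in male pools 1 to 4. In IP they were 107, 59.0, 78.4 and 89.7 in the female pools and 77.3, 98.9, 82.5 and 67.2 in the male pools. The female pools held both the highest and the lowest IP library, and every IP library was above every IN library. The means were 20.8 ± 2.42 and 82.5 ± 15.8 (SD, n = 8 each), and the log2 change of 1.92 ± 0.08 ranked 11, with folds of 2.71 to 4.85. Over the pools the change of Tmem158 had an SD of 0.239, the smallest of the 6 genes, and that of Tmem79 one of 0.496, the largest, beside a median of 0.184 over all tested genes.

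Tmem79 varied more in total RNA than in the pulldown. Its IN levels were 25.2, 25.5, 13.6 and 20.9 in female pools 1 to 4 and 26.5, 13.5, 25.6 and 27.6 in male pools 1 to 4. Its IP levels were 87.7, 59.1, 89.6 and 77.4 in the female pools and 89.7, 87.3, 90.1 and 86.3 in the male pools. Female pool 3 and male pool 2 were low in IN only, female pool 2 was the lowest in IP, the 4 male IP libraries were nearly the same, and the fractions did not overlap. The means were 22.3 ± 5.76 and 83.4 ± 10.6 (SD, n = 8 each), a log2 change of 1.89 ± 0.15 that ranked 13, and the coefficient of variation was 25.8% in IN and 12.8% in IP, with 2.08% in the male and 17.8% in the female IP libraries. The 2 pools low in IN had the largest changes (log2 2.64 and 2.61, against 1.18 to 1.84 in the other pools). Glmp, which overlaps Tmem79 on the other strand, was lower, at 5.13 ± 1.04 in IN and 5.85 ± 3.20 in IP, and did not pass the test (log2 0.06 ± 0.17, limma adjusted p = 0.756).

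Cd55 was the most abundant of the 6 genes and had the smallest change. Its IN levels were 136, 126, 136 and 131 in female pools 1 to 4 and 118, 139, 127 and 126 in male pools 1 to 4. Its IP levels were 269, 229, 338 and 221 in the female pools and 259.8, 223, 254 and 329.8 in the male pools. Female pool 3 and male pool 4 were the highest in IP, and the fractions did not overlap. The means were 130.0 ± 7.16 and 265 ± 45.8 (SD, n = 8 each), a log2 change of 1.01 ± 0.08 with folds of 1.60 to 2.61, which ranked 488 where the other 5 genes ranked 5 to 13. The genes next to it in that order were Snx7 and Gal, each with a log2 change of 1.01.

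Cd55b was less abundant than Cd55 in every library and had the larger change. Its IN levels were 12.0, 15.3, 14.7 and 11.5 in female pools 1 to 4 and 13.5, 6.19, 8.93 and 15.9 in male pools 1 to 4. Its IP levels were 44.2, 35.8, 54.9 and 48.6 in the female pools and 47.7, 36.6, 54.8 and 57.2 in the male pools. Male pool 2 was the lowest in IN, female pool 2 and male pool 2 were the lowest in IP, and the fractions did not overlap. The means were 12.2 ± 3.35 and 47.5 ± 8.19 (SD, n = 8 each), a log2 change of 1.90 ± 0.12 that ranked 12, with folds of 2.35 to 6.14. The ratio of Cd55 to Cd55b within a library was 11.7 ± 4.83 in IN (7.93 to 22.5) and 5.64 ± 0.707 in IP (4.54 to 6.40), and it was lower in IP in 8 of 8 pools. The largest ratio, 22.5, came from the IN library of male pool 2. No difference between female and male pools in this ratio passed an exact two-sided permutation test in either fraction (IN 10.1 ± 1.60 against 13.3 ± 6.70, p = 0.514; IP 5.79 ± 0.848 against 5.48 ± 0.619, p = 0.543, n = 4 each; adjusted over both fractions p = 0.543 for each), where the smallest p that 4 against 4 allows is 0.0286. All of these ratios rest on reads that the pair can share, as the printed run shows.

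**Figure D1:**
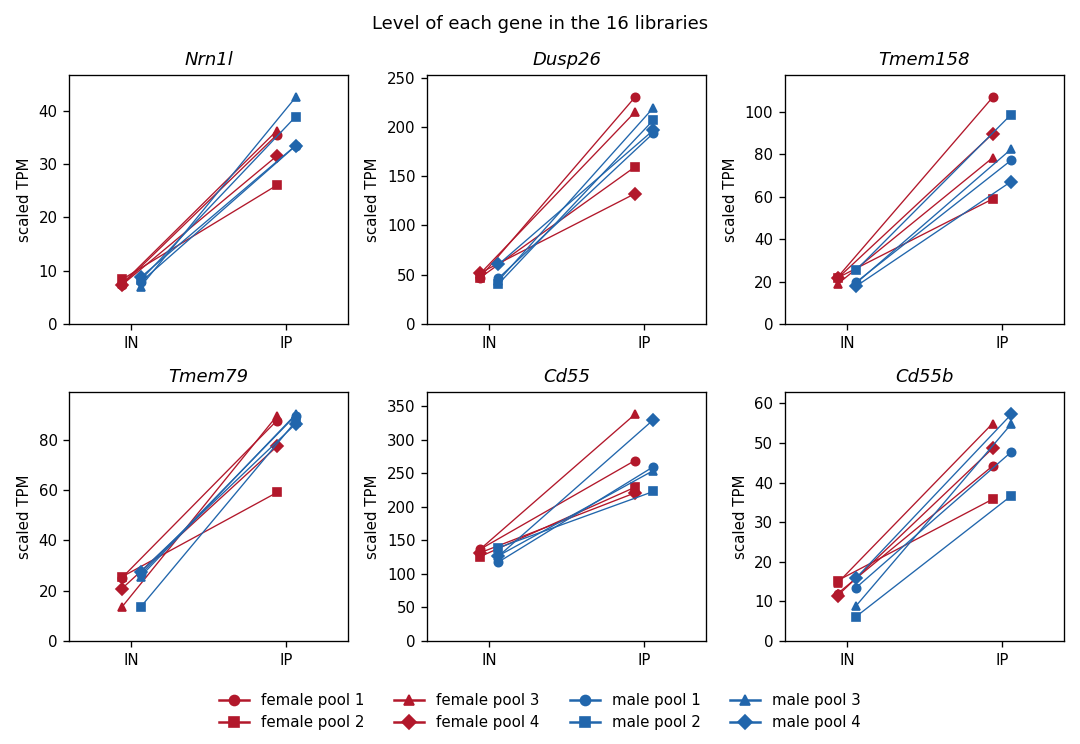
Level of each of the 6 genes in the 16 libraries (y axis, scaled TPM, each panel from 0), with IN on the left and IP on the right. A line joins the 2 libraries of a pool, red for female and blue for male pools, and the symbol gives the pool number. In every panel the 8 IP points lie above the 8 IN points, with Cd55 going from 130.0 to 265 and Nrn1l from 7.81 to 34.7 on average.

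**Figure D2:**
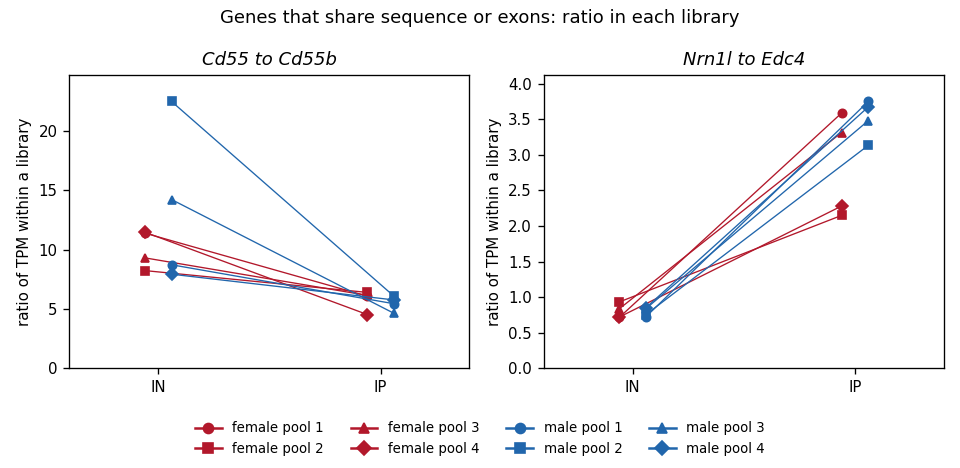
Ratios of TPM within a library for genes that share sequence (Cd55 to Cd55b, left) or exons on the same strand (Nrn1l to Edc4, right), with IN and IP of each pool joined by a line. The Cd55 to Cd55b ratio is lower in IP in every pool, from a mean of 11.7 to 5.64, and the Nrn1l to Edc4 ratio is higher in every pool, from 0.797 to 3.17.

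All 6 genes were higher in IP in each of the 8 pools, a property that 33.2% of the tested genes had, and in all 6 the lowest IP library was above the highest IN library, which held for 22.4% of the tested genes. In the fit, 40.5% of the tested genes were called higher in IP and 38.9% lower at an adjusted p below 0.05, and since the 6 were picked on this contrast nothing is read from their own count. Their median change was a log2 of 1.91, beside 0.02 over all tested genes. Just inside and just outside the 5 genes with the largest changes stood Nppb, a peptide of itch neurons (log2 1.98, rank 7), Fxyd2, a regulator of the sodium pump (1.88, rank 14), and Tmem45b (1.87, rank 15). Snurf, Gm15564, Nmb and Kcnk12 held the first 4 ranks.

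The pools were not alike. Female pool 2 had the smallest change in 4 of the 6 genes (Nrn1l, Tmem158, Tmem79 and Cd55b), female pool 4 in Dusp26 and male pool 2 in Cd55. The median change of the 6 genes was 1.29 in female pool 2 and 1.73 to 2.22 in the other 7 pools, and the median of the 16 nociceptor markers was 1.06 in female pool 2 and 1.49 over all pools. In that pool the satellite glia markers had a median change of -1.71, against -3.51 to -2.46 in the others, and the sum of the fibroblast markers in its IP library was 267.3, against 90.79 to 261.5. The part of these other cells in the smaller changes was not tested. Without female pool 2 the changes of the 6 genes were 2.08 for Nrn1l, 1.999 for Dusp26, 1.99 for Tmem158, 1.99 for Tmem79, 1.03 for Cd55 and 2.01 for Cd55b, so each was as large as with it.

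**Figure D3:**
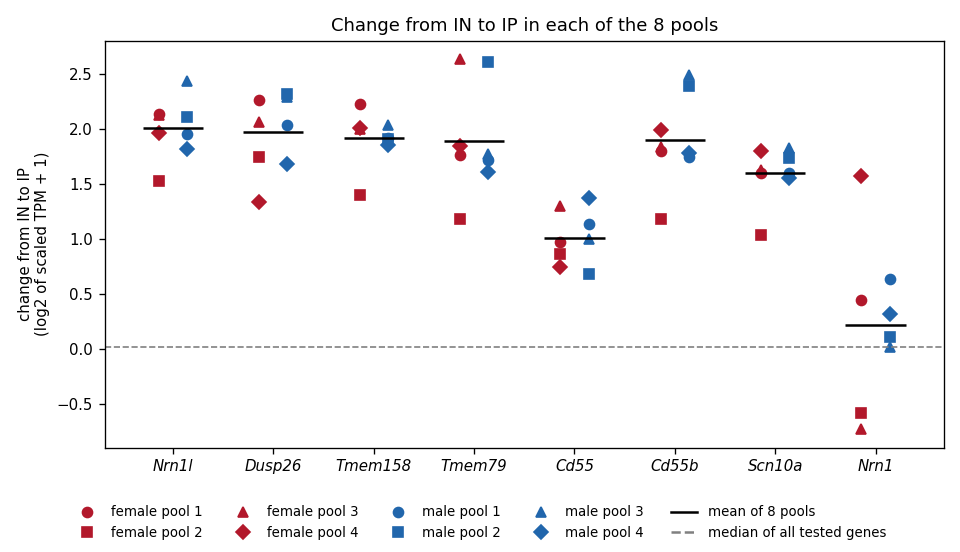
Change from IN to IP (y axis, difference of log2(scaled TPM + 1)) of the 6 genes, of Scn10a and of Nrn1 in each of the 8 pools, with the mean as a bar and the median of all tested genes (0.02) as a dashed line. Female pool 2, the red square, is the lowest point for Nrn1l, Tmem158, Tmem79, Cd55b and Scn10a, and the changes of Nrn1 lie on both sides of 0.

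TPM are per length, so levels can be set side by side between genes. For Nrn1l, Tmem79, Cd55 and Cd55b they also rest on how reads from shared exons or sequence were assigned, which is unknown. The order of the mean levels was Cd55, Dusp26, Tmem79, Tmem158, Cd55b and Nrn1l in both fractions. Tmem79 and Tmem158 could not be ordered, since Tmem79 was the higher in only 5 of 8 libraries of either fraction. Cd55b and Nrn1l overlapped too, with Cd55b higher in 7 of 8 libraries of either fraction. The other neighbours were in this order in 8 of 8 libraries, and Cd55 was 2.68 times the level of Dusp26 in IN and 1.37 times in IP, where the ranges of this pair over pools overlapped. Against Scn10a in the same library, Cd55 stood at 1.05 ± 0.111 in IN and 0.701 ± 0.106 in IP and was lower in IP in 8 of 8 pools. The ratio to Scn10a was higher in IP in 8 of 8 pools for Nrn1l (0.0629 to 0.0916), Tmem158 (0.169 to 0.217) and Cd55b (0.0971 to 0.125), and in 7 of 8 pools for Dusp26 (0.390 to 0.514) and Tmem79 (0.181 to 0.220). Cd55 was thus the only one of the 6 with a smaller change than Scn10a, whose own change ranked 46.

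Profiles over the 16 libraries were compared by the root mean square difference of the log2 values after each gene was centred at its mean, a measure that the change from IN to IP sets in large part. Among the 3 nearest named genes to Nrn1l were the purinergic receptor gene P2rx3 (0.131) and the thioredoxin gene Txn1 (0.145). Among those to Dusp26 were Nrn1l (0.171) and Tmem45b (0.191). For Tmem158 they were the synaptotagmin gene Syt5 (0.125), Txn1 (0.157) and the itch receptor gene Mrgpra3 (0.161). Cd55b lay nearest to the sodium channel gene Scn11a (0.196), Tmem45b (0.218) and Prkcd (0.244), and Tmem79 nearest to S100a6 (0.267), Tmem45b (0.272) and Prkcd (0.274). Cd55 had other neighbours, Mal2 (0.0902), Hs6st2 (0.109) and Ano3 (0.111), and its distance to Cd55b was 0.555. For comparison, the median distance to all tested genes was 1.02 to 1.05 for the other 5 genes and 0.577 for Cd55.

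The genes of each protein's family or pathway were described from lists of other genes, with the counts and the median beside those of all tested genes (40.5% higher, 38.9% lower, median log2 0.02). Among 12 tested genes of the complement regulator list besides Cd55 and Cd55b, 9 fell and 1 rose, with a median log2 change of -0.52. Not every gene of this list is itself a regulator. Adgre5, which is among the 9 (-0.92 ± 0.07), is named here for that reason, after its value was seen. The one that rose was Serping1, the inhibitor of the first complement component (0.59 ± 0.12, limma adjusted p = 0.0012, higher in IP in 7 of 8 pools), which is named here for its value. Vtn, a secreted regulator, had the largest fall (-2.81 ± 0.13). Of the regulators on the cell surface, Cd59b fell by 0.54 on the log2 scale, from 3.04 ± 0.382 to 1.77 ± 0.285, a call that was lost with quantile normalization (-0.08, limma adjusted p = 0.413). Csmd3 (-0.90), Csmd2 (-0.50), Csmd1 (-0.35) and Susd4 (-0.26), also of this list, were called lower too and are named for their values. Cr1l (-0.10, adjusted p = 0.351) and Cd59a (-0.01, adjusted p = 0.943) did not pass, with Cd59a at 21.4 ± 8.49 in IN and 21.0 ± 6.16 in IP. Cd46 was too low to be tested, at 1.28 ± 0.269 in IN and 0.181 ± 0.249 in IP. All 11 tested genes of the complement component list fell (median -2.16), from C2 (-0.72 ± 0.11) to Cfd (-2.61 ± 0.17), with C1qa at 15.4 ± 1.90 in IN and 2.02 ± 0.770 in IP. C1qa, C1qb and C1qc are also markers of macrophages, all 8 of whose tested markers fell, and the part of these cells was not tested.

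Among 23 tested genes of neuritins and other GPI-anchored neuronal surface proteins besides Nrn1l, 11 rose and 9 fell, with a median of 0.18. Gfra3 and Gfra2, co-receptors for glial cell line-derived growth factors, had the largest rises (1.28 ± 0.07 and 1.24 ± 0.06). Ly6e (-1.80 ± 0.14) and Ntm (-1.56 ± 0.08) had the largest falls.

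Of 18 dual-specificity phosphatases tested besides Dusp26, 11 fell and 4 rose, with a median of -0.53. The 4 that rose, Dusp22 (0.47), Dusp8 (0.26), Dusp12 (0.20) and Dusp28 (0.14), did so in 6 or 7 of 8 pools and are named for their values. Dusp11, which acts on RNA, fell by 1.58, and Dusp18 fell by 1.13. Dusp6, which acts on ERK, fell by 0.75. The most abundant in IP besides Dusp26 was Dusp3, at 40.3 ± 5.45. Of 12 tested MAP kinase genes, 8 rose and 2 fell (median 0.22). Mapk3, which encodes an ERK kinase (0.90 ± 0.06), and Mapk11, which encodes a p38 kinase (0.89 ± 0.04), had the largest rises, and Mapk6 (-0.51 ± 0.05) and Mapk8 (-0.31 ± 0.09) were the ones that fell.

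For Tmem158, of 18 tested Ras genes and Ras regulators 14 fell and 3 rose (median -0.75). The 3 that rose were Rasgrp1, an exchange factor (1.12 ± 0.05), Rras (1.095 ± 0.07) and Hras (1.02 ± 0.08). The largest falls were those of Rasa3 (-1.73 ± 0.16) and Rasgrp2 (-1.60 ± 0.14).

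For Tmem79, of 4 other tested MAPEG genes 3 fell and 0 rose. These were Ptges, which makes prostaglandin E (-1.58 ± 0.07), Alox5ap (-1.20 ± 0.07) and Mgst1 (-0.997 ± 0.07). The fourth, Mgst3, was at 29.9 ± 1.56 in IN and 30.0 ± 2.71 in IP (limma adjusted p = 0.987). Its place depended on the scaling. With quantile normalization all 4 were called lower, and without scaling Mgst3 lay 0.37 above the median of all tested genes. Among 16 tested Frizzled receptors, Wnt co-receptors and their regulators, 11 fell and 3 rose (median -0.89). Lrp5 (-1.68 ± 0.11) and Fzd2 (-1.64 ± 0.08) had the largest falls, and the 3 that rose were Ror2 (0.70 ± 0.06), Tmem59 (0.54 ± 0.09) and Tmem59l (0.52 ± 0.04). Usp8, a deubiquitinase that acts on Frizzled receptors, did not pass (0.07 ± 0.04, adjusted p = 0.116).

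**Figure D4:**
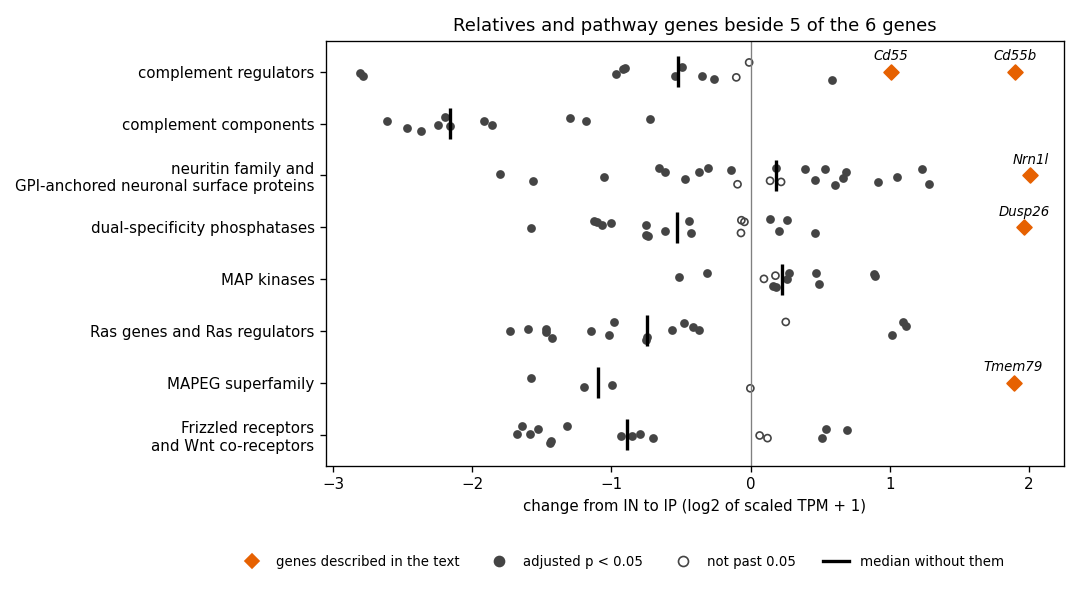
Change from IN to IP (x axis, difference of log2(scaled TPM + 1)) of each tested gene in 8 lists, with filled circles for an adjusted p below 0.05, open circles for the rest and a vertical bar at the median of a list. Orange diamonds mark Cd55, Cd55b, Nrn1l, Dusp26 and Tmem79 beside their own relatives. These genes were picked for large rises on this axis, so nothing is read from their place among the relatives.

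The scaling sets where 0 lies. On the deposited TPM without scaling the median of all tested genes was a log2 of 1.84 and the 6 genes had changes of 3.28 (Cd55) to 4.22 (Dusp26). With quantile normalization that median was 0.15 and the changes were 0.70 (Cd55) to 1.99 (Nrn1l). Taken relative to the median of all tested genes, the 6 changes were 0.99 to 1.99 with the scaling used here, 1.44 to 2.38 without scaling and 0.55 to 1.84 with quantile normalization. Relative to that median, the median of the neuritin and GPI-anchored list was 0.16, 0.43 and -0.24 under these 3 scalings and so has no direction of its own. The medians of the other 7 lists lay on 1 side of it under all 3. Without scaling, 93.99% of the genes called were higher in IP, and the complement regulator list, for example, then counted 10 higher and 2 lower. Among the list genes named, Serping1 (log2 0.25, limma adjusted p = 0.0597) and Cd59b (-0.08, adjusted p = 0.413) were not called with quantile normalization. Tmem59 and Tmem59l then lay near the median of all tested genes (0.04 and 0.03 relative to it). Mapk8 (0.01), Csmd1 (-0.04) and Susd4 (0.08) lay near it without scaling. Without scaling, Alox5ap, Ly6e, Ntm, Rasa3 and Rasgrp2 were not called either, with changes of -0.08 (Alox5ap) to 0.13 (Ntm), all below that median. Dusp12 lost its call without female pool 2, female pool 3 or male pool 1 (adjusted p = 0.0507 to 0.0591), and Dusp28 without female pool 1, 3 or 4 or male pool 1 or 3 (adjusted p = 0.0508 to 0.0835).

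Female and male pools were then compared within each fraction. In IP 0.0497% of the tested genes (8) were called at an adjusted p below 0.05, and none of the 6 genes was among them or passed an unadjusted 0.05, which 2.25% of genes did. Nrn1l was at 32.4 ± 4.69 in the female and 37.1 ± 4.45 in the male IP libraries (SD, n = 4 each), a female minus male difference of -0.19 (95% confidence interval -0.48 to 0.09) and a limma adjusted p = 1, as for the other 5 genes. Dusp26 was at 184 ± 46.1 and 204 ± 11.6, a difference of -0.18 (-0.57 to 0.20). Tmem79 was at 78.4 ± 14.0 and 88.3 ± 1.83, a difference of -0.19 (-0.48 to 0.10). The female IP libraries of these 3 genes included the lowest one, and the sexes overlapped. Tmem158 differed by 0.02 (-0.40 to 0.43), Cd55 by -0.02 (-0.40 to 0.36) and Cd55b by -0.09 (-0.47 to 0.29). The sexes overlapped in all 6 genes, where 1.66% of tested genes had no overlap. Without female pool 2 the differences in IP were -0.12 (Dusp26) to 0.17 (Tmem158), with -0.10 for Nrn1l and -0.06 for Tmem79, and none passed. The Dusp26 difference was -0.04 without female pool 4, the lowest IP library of this gene, and -0.30 without female pool 1. The widest intervals over all pools still allow a female level lower by a log2 of 0.57 or higher by 0.43, so the sexes were not shown to be alike.

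In IN 0.0808% of the tested genes (13) were called and 4.82% passed an unadjusted 0.05, and again none of the 6 genes passed either (limma adjusted p = 0.962 to 0.988). The difference was -0.05 for Nrn1l (95% confidence interval -0.22 to 0.12), 0.05 for Dusp26 (-0.21 to 0.31), 0.04 for Tmem158 (-0.20 to 0.28) and 0.06 for Cd55 (-0.09 to 0.20). The 2 genes that varied most in IN had the widest intervals. Cd55b was at 13.3 ± 1.90 in female and 11.1 ± 4.40 in male IN libraries, a difference of 0.31 (-0.26 to 0.87), and Tmem79 was at 21.3 ± 5.57 and 23.3 ± 6.60, a difference of -0.11 (-0.70 to 0.48). Single pools moved both values: the Cd55b difference was 0.08 without male pool 2 and 0.49 without male pool 4. That of Tmem79 was -0.35 without male pool 2, -0.21 without female pool 2 and 0.08 without female pool 3, where its sign turned, and with each of the other 5 pools left out it was -0.20 to -0.02. The sexes overlapped in all 6 genes, where 2.83% of tested genes had no overlap.

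Whether the change from IN to IP differed between the sexes was tested as an interaction, in which 0.0186% of the tested genes (3) were called and 2.78% passed an unadjusted 0.05. None of the 6 genes passed either. The female minus male difference of the change was below 0 in all 6 genes, which share the same libraries. It was largest for Cd55b, at -0.40 (95% confidence interval -0.91 to 0.11, limma adjusted p = 1), where the mean change was 1.70 in female and 2.10 in male pools. For Dusp26 it was -0.23 (-0.72 to 0.26) and for Nrn1l -0.14 (-0.53 to 0.25). For Cd55 it was -0.08 (-0.47 to 0.32), for Tmem79 -0.07 (-0.79 to 0.64) and for Tmem158 -0.02 (-0.39 to 0.34). Without female pool 4 it was -0.06 for Dusp26. Without female pool 2 it was -0.22 for Cd55b and -0.01 for Nrn1l, and above 0 for Tmem158 (0.15) and Tmem79 (0.15), and again none passed.

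**Figure D5:**
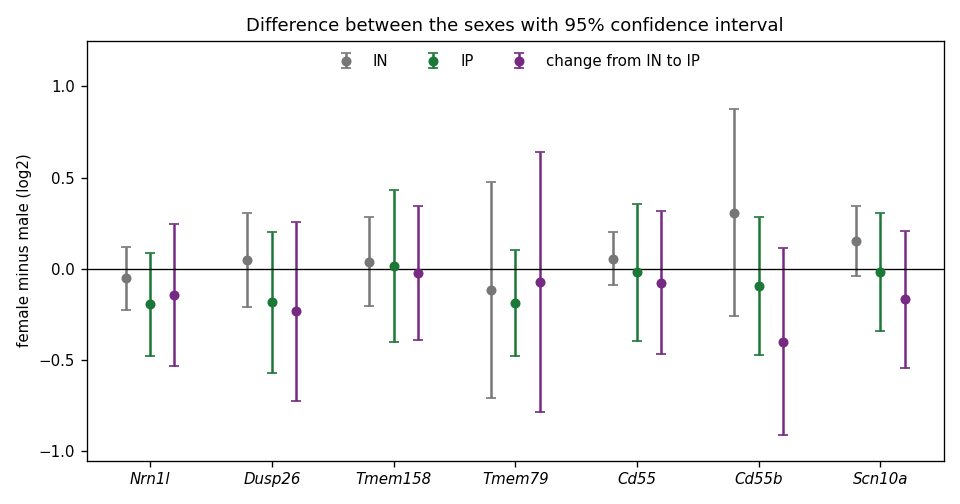
Female minus male difference (y axis, log2 of scaled TPM + 1) of the 6 genes and Scn10a in IN (grey), in IP (green) and in the change from IN to IP (purple), as points with 95% confidence intervals from the limma fits. Every interval crosses 0, and the widest are those of Cd55b and Tmem79 in IN and in the change.

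The promoters of Cd55 and Cd55b are shown because both genes had more RNA in IP and lie in tandem. RefSeq (GRCm38.p6) gave promoter entries for 4 of the 6 genes, Cd55, Cd55b, Nrn1l and Tmem79. The 250 bases before the start are at chr1:130462745-130462994 for Cd55 and at chr1:130423044-130423293 for Cd55b, both on the minus strand, with capitals for aligned identical runs of at least 10 bases, 88 bases in each.
Cd55: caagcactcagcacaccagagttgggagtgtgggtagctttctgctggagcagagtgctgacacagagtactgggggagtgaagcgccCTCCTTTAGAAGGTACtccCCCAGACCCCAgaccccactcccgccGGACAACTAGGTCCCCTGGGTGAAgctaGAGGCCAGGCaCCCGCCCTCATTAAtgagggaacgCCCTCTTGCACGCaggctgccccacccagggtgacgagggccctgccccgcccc
Cd55b: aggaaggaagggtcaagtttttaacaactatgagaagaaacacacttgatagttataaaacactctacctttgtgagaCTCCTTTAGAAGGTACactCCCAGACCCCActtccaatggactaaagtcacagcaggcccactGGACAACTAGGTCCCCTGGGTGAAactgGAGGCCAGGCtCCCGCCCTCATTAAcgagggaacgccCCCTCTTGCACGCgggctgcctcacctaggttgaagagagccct
Of 5 motifs searched on both strands in these 250 bases, the GC box GGGCGG was found at 2 places in Cd55 and 1 in Cd55b and in neither Nrn1l nor Tmem79, and 32.74% of 32851 promoters hold it. The E-box CANNTG was found at 1 place in Nrn1l, Cd55b and Tmem79 and not in Cd55 (66.22% of promoters). TATAAA was found at 1 place in Cd55b and Tmem79 (12.37%), and TGTGGT (14.05%) and TGACGTCA (1.546%) in none of the 4.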

How the data were processed

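Total RNA and pulldown libraries were sequenced after ribosomal RNA depletion, per the labels' protocols, and the submitters' processing notes name GRCm38.p5, FastQC, STAR 2.2.1 and StringTie 1.3.5. Read length, annotation release and strandedness of the counting are not stated in these sources. The authors' deposited values were taken to be TPM, because each library sums to 1000000, although the header line calls the last column Coverage. TPM keep no counts, so depth is unknown, no interval that needs it was computed and count tests were not used.

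Entries of one gene ID were summed (17 to 21 per library), 92 ERCC entries were left out, and 53379 gene IDs remained, of which 53274 are in GENCODE M21. Tested genes had a mean TPM, as deposited, of 1 or more in the IN or in the IP libraries. Values were divided by median-of-ratios factors (0.375 to 0.532 in IN, 1.65 to 2.69 in IP), 1 was added and log2 was taken, a scale that understates changes of low genes. Models were fitted over all 16099 genes with limma 3.58.1 in R 4.3.3 (lmFit, eBayes with trend), two-sided, with Benjamini-Hochberg adjustment at 0.05, and were tested on simulated data. The pool was a block for IP against IN and for the interaction of sex and fraction, and female against male had no block. Figures and ratios were made with Python 3.11.15, pandas 2.3.3, numpy 2.4.6, scipy 1.17.1 and matplotlib 3.10.9.

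The series' design text pairs the IN and IP library of a pool. Within a sex, the correlation across genes of their deviations from the group mean was 0.014 to 0.414 for the 4 female and 0.007 to 0.323 for the 4 male pools. For IN and IP libraries of different pools it was -0.263 to 0.115 in females and -0.279 to 0.201 in males. These ranges overlap those of the same pool, so the correlations do not bear out the pairing of every pool. The labels call the pools replicates, and p-values measure the spread between these pools. No 2 libraries were identical (0 pairs).

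The members and the lists were chosen with earlier results of these data known. Besides the 6 genes, the text names Scn10a, up to 2 genes per list with the largest and up to 2 with the smallest change among those called with the same sign in every pool, relatives of the 6, the 3 nearest profiles and neighbours in rank. Genes outside this rule are said to be named for their values, and Hras, Alox5ap, Mgst1, Mgst3, Usp8, Dusp3, Dusp6, Tmem59l, Mapk6 and Mapk8 were also named after their values were seen. Some genes that the rule allows are not reported here. Alternatives were other scalings, a pseudocount of 0.1, no filter, the block added or removed and each pool left out.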

Additional observations from a re-analysis of the deposited data

Results flagged for a closer look

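In 36 groups of 4 values for the 6 genes (levels in each sex and fraction, and changes in each sex), 3 had 1 value far from the other 3 by Dixon's criterion, where chance flags about 1 in 20 groups. Tmem158 in the female IN libraries was at 18.84 in pool 3, against 21.55 to 22.06 in the other pools. Tmem79 in the male IN libraries was at 13.49 in pool 2, against 25.62 to 27.61. The change of Tmem79 from IN to IP in male pool 2 was a log2 of 2.607, against 1.61 to 1.774 in the other male pools, and it uses that same IN library. In the IN library of male pool 2, Cd55b, also at its lowest, stood at 6.19, and Glmp, which overlaps Tmem79 on the other strand, at 3.23.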

How the results depend on the processing

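The count for IP against IN was 12783 and went to 21019 with no filter on low values (35913 genes tested, 32.81% of calls higher). It was 12404 to 12793 with each pool left out, and calls higher in IP were 50.96% here, 93.99% without scaling and 61.14% with quantile normalization. Female against male in IP gave 8 calls, 5 with the replicate number as a block and 5 to 12 with each pool left out (5 without female pool 2, male pool 1 or male pool 4). In IN it gave 13, 8 with that block and 10 to 13 with each pool left out. Same-numbered female and male pools correlated at -0.299 to 0.094 in IN and -0.217 to 0.101 in IP. This cannot decide whether the numbers mark a pairing. By the same measure the IN and IP libraries of 1 pool correlated at only 0.014 (female pool 1) and 0.007 (male pool 1). The interaction gave 3 calls, 3 with no replicate block, 11 without scaling, 1 with quantile normalization, 0 with no filter (1121 at an unadjusted 0.05, limma) and 0 to 6 with each pool left out (0 without female pool 3 or male pool 1, 6 without female pool 2). The causes were not tested. The 6 genes had 13 alternatives each in IP against IN, with 0 changes of sign. Since they were picked for large and even changes in these same libraries, nothing is read from that. They had 78 results in each sex comparison, with 0 calls (lowest limma adjusted p 0.953 in IP, 0.789 in IN and 0.780 for the interaction). TPM without counts limit what can be said of low genes such as Nrn1l, and 4 pools per sex limit the sex comparisons.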

Other observations

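The place of the 6 genes among all tested genes differed by fraction. The genes were picked on this contrast, and genes already high in IN have little room to rise in percentile, so the steps are not compared. By mean level Nrn1l stood at percentile 50.06 in IN and 86.31 in IP. Cd55b went from 64.18 to 90.45, Tmem158 from 78.82 to 95.21, Tmem79 from 80.45 to 95.34 and Dusp26 from 92.73 to 98.52. Cd55 was near the top in both, at 98.24 and 99.12, where Scn10a was at 98.11 and 99.50. Among the 15 pairs of the 6 genes, the profiles over the 16 libraries were closest for Nrn1l and Dusp26 (0.171 by the root mean square difference of centred log2 values) and farthest for Cd55 and Tmem79 (0.561). Cd55b was nearer to Dusp26 (0.301) than to Cd55 (0.555). An antisense gene of Cd55, Gm16083, which shares 102 of its exon bases, was at 1.20 ± 0.242 in IN and 0.395 ± 0.107 in IP (SD, n = 8 each), too low to be tested.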
